A study of Mus musculus with 6 samples.

Results

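Cytosolic ribosomal proteins were examined gene by gene in hearts of E12.5 mouse embryos. They are the structural proteins of the ribosomes that translate nuclear mRNAs, as distinct from those of the mitochondrial ribosome. The members were the genes whose single annotated symbol has the form of a ribosomal protein of the small (Rps) or large (Rpl) subunit, together with Rpsa, Rplp0, Rplp1 and Rplp2, with S6 kinases and pseudogene symbols left out. This rule took 61 genes of the 19933 genes that had a cluster with a single symbol, out of 28767 transcript clusters on the array. The 61 genes were read by 217 clusters, and the cluster with the highest mean signal over the 6 arrays stood for each gene. Rpl11, a further ribosomal protein, was not analysed here.

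The arrays compared 3 hearts labelled knockout for β1 integrin, called KO here, with 3 wild-type hearts, called WT, all from E12.5 mouse embryos. The stated purpose was to look for the mechanisms behind the abnormal phenotype at a stage before the hearts were visibly impaired. The labels name no strain, no allele and no cell type of deletion, and they leave unstated if hearts were pooled. P-values therefore set the difference between groups against the spread among these samples, and what a sample stands for is unknown. Signals are log2 intensities of Affymetrix Mouse Gene 1.0 ST arrays, so a difference of 1 is a doubling, and the signal of a cluster also depends on its probes, so levels of different genes were not set against each other.

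A ribosome is made of ribosomal RNAs and ribosomal proteins, most of which are present in a single copy per ribosome, and cells make the proteins in matched amounts. Many ribosomal protein mRNAs begin with a run of pyrimidines, the terminal oligopyrimidine (TOP) tract, through which mTOR signalling controls their translation. Loss of a single copy of some of these genes causes Diamond-Blackfan anaemia in humans, in which heart malformations occur, and ribosomal proteins that are not built into ribosomes bind Mdm2 and stabilise p53.

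The TOP tract is shown for a few genes because it is the sequence feature that ties these mRNAs to translation control. RefSeq start sites (GRCm38.p6) were held for 49 of the 61 genes. The tract was searched as a C followed by 4 bases, each C or T, beginning within 5 bases of the annotated start on the coding strand. Each window below holds 10 bases before the start and 20 bases from it, 5′ to 3′ on the strand of the gene, with the tract in capitals. The genes shown were picked with their values and tracts known.
Rpl38, chr11:114668570-114668599, plus strand: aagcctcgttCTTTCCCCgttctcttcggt
Rps18, chr17:33955646-33955675, minus strand: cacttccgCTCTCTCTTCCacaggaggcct
Rps6, chr4:86857348-86857377, minus strand: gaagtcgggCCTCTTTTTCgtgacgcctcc
Rplp2, chr7:141447641-141447670, plus strand: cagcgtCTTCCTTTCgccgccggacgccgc
Rps12, chr10:23787190-23787219, minus strand: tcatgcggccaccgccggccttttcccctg
Rps28, chr17:33824543-33824572, minus strand: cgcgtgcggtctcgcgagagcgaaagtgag
Rpl10l, chr12:66284382-66284411, minus strand: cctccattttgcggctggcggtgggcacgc
The windows of Rps12, Rps28 and Rpl10l hold no tract that meets this definition, which says only that these letters do not lie at the annotated start.

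The targeted gene was looked at first. Itgb1, which encodes β1 integrin, had signals of 11.53, 11.42 and 11.65 in KO hearts, against 11.76, 11.80 and 11.78 in WT hearts. The KO hearts lay below all WT hearts, at 84.0% of the WT level (exact two-sided permutation p = 0.1, the smallest that 3 hearts against 3 allow). Over all clusters, limma called 0 at an adjusted p of 0.05, and 5.93% had an unadjusted p under 0.05. Of all clusters, 12.6% showed no overlap between the groups, 6.01% with every KO heart above and 6.61% with every KO heart below. KO heart 1 stood apart: it was the highest of the 6 hearts for 24.6% of clusters and the lowest for 27.1%. Markers of red blood cells averaged 9.66, 8.16 and 8.26 in KO hearts and 8.44, 8.47 and 8.05 in WT hearts (11 of 16 listed genes measured), so KO heart 1 was high. The part of red blood cells in the values below was not tested, and in bulk tissue fewer cells of a type and less RNA per cell cannot be told apart.

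The ribosomal protein genes had nearly the same signal in KO and WT hearts. The mean over the 61 genes was 10.93, 10.96 and 10.95 in KO hearts, against 10.95, 10.93 and 10.94 in WT hearts, so the groups overlapped. Of the 61 genes, 26 had a higher and 34 (55.7%) a lower mean in KO hearts, and Rps6 had the same mean in both. Of all clusters, 53.4% had a lower mean in KO hearts. The median difference was -0.00, beside -0.01 over all clusters. The count of higher genes was 36 when arrays were centred on their bright clusters and 33 after cyclic loess, so the balance of directions depended on the scaling. Limma called 0 of the 61 genes (smallest adjusted p = 0.797), beside 0% of all clusters. An unadjusted p under 0.05 was found for 1 gene, Rpl38 (1.64% of the 61, beside 5.93% of all clusters, made up of 3.06% higher and 2.87% lower ones in KO hearts).

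**Figure D1:**
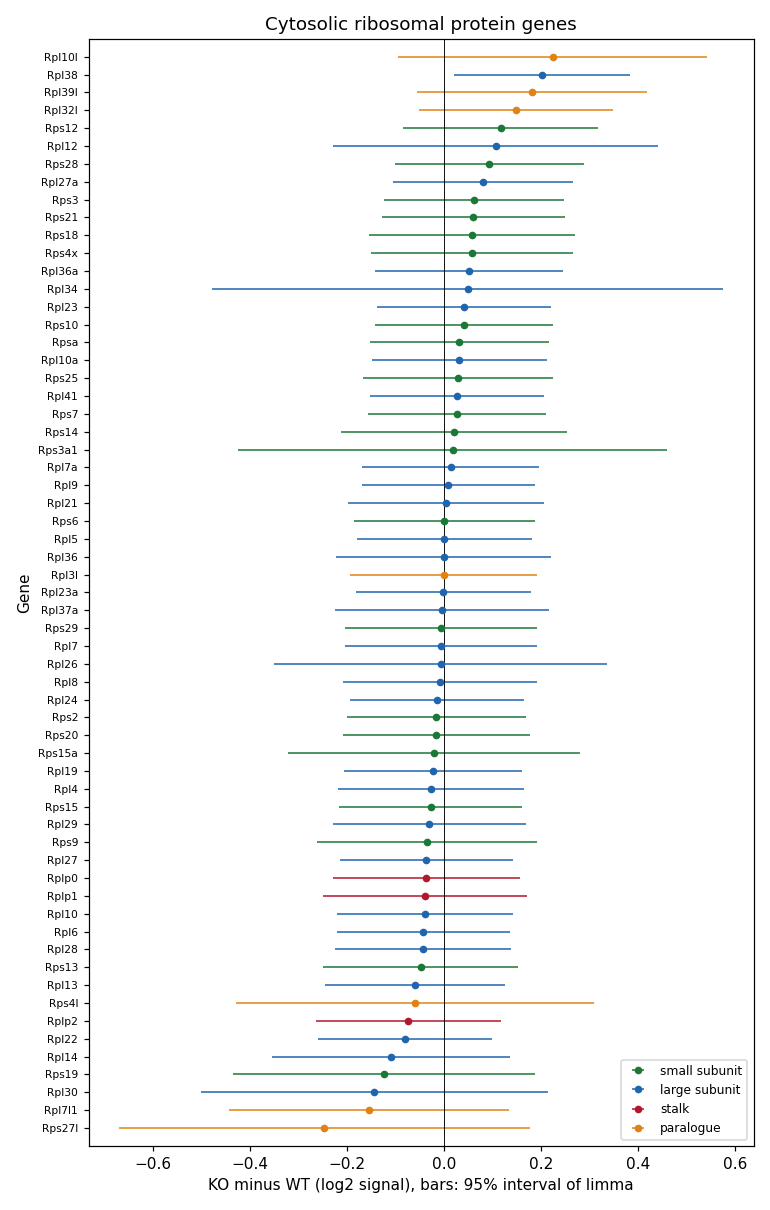
Difference between KO and WT hearts for each of the 61 genes (x axis, log2 signal, KO minus WT) with the 95% interval of limma, genes ordered by the difference and coloured by their place in the ribosome. The points run from -0.25 for Rps27l to 0.22 for Rpl10l, and the interval of 1 gene, Rpl38, does not include 0.

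The differences were small and bounded by their intervals. A difference under 0.1 in either direction was found for 50 of the 61 genes (82.0%), beside 52.99% of all clusters and 66.8% of the brightest 10% of clusters. The whole 95% interval lay within a 1.2-fold change for 40 genes (65.6%), beside 17.2% of all clusters and 39.3% of the brightest 10%. For the remaining genes the arrays could not exclude a larger change. The members and the brightest 10% were not matched for signal, with median levels of 11.70 and 10.68. A difference under 0.1 was found for 43 of 45 members with a mean signal of at least 10, and for 7 of 16 below it. That bound was chosen after seeing the data. The widest interval was that of Rpl34, from -0.48 to 0.58, whose signals were 8.07, 8.63 and 8.75 in KO hearts and 8.59, 8.03 and 8.69 in WT hearts.

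Most of these genes had a larger spread among the KO hearts than among the WT hearts. The standard deviation was larger in KO hearts for 49 of the 61 genes (80.3%), beside 63.3% of all clusters and 75.6% of the brightest 10%. KO heart 1 was the highest heart for 17 genes and the lowest for 14, KO heart 2 for 11 and 11, and KO heart 3 for 14 and 16. WT heart 1 was the highest for 3 and the lowest for 6, WT heart 2 for 6 and 7, and WT heart 3 for 10 and 7. The deviations of the genes from their WT means had standard deviations of 0.16, 0.12 and 0.13 in KO hearts, against 0.07, 0.09 and 0.08 in WT hearts, where the WT values are smaller in part because those hearts set the mean.

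**Figure D2:**
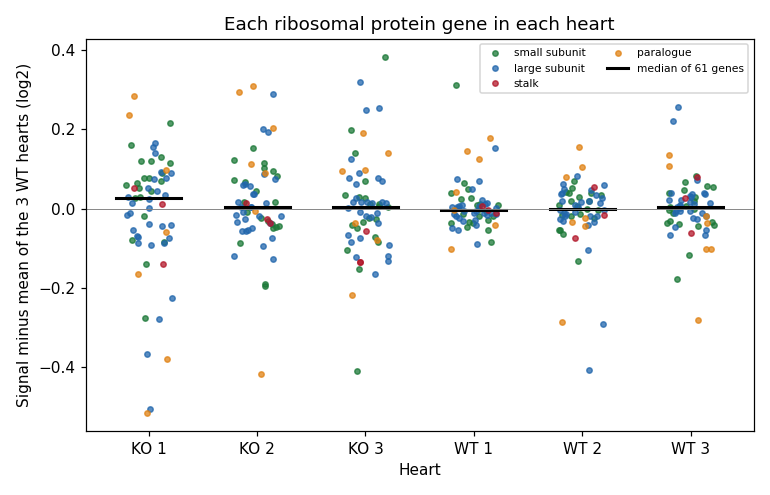
Signal of each of the 61 genes in each heart (y axis, log2, minus the mean of that gene over the 3 WT hearts), 3 KO hearts on the left and 3 WT hearts on the right, with a line at the median of the genes. The medians lie between -0.00 and 0.03 in every heart, while the points spread more widely in the KO hearts.

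No overlap between the groups was found for 4 of the 61 genes (6.56%), beside 12.6% of all clusters, so the count was below the background share. Rpl38, Rpl32l and Rpl23 lay above in every KO heart, and Rpl22 lay below. With 1 heart left out the share of the 61 genes without overlap was between 6.56% and 32.8%, beside 19.99% to 28.1% of all clusters. The highest share came without KO heart 3, with 20 genes (32.8%, beside 28.1% of all clusters).

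Rpl38, a large-subunit protein, had the lowest p of the 61 genes. Its signals were 11.75, 11.80 and 11.85 in KO hearts, against 11.59, 11.64 and 11.58 in WT hearts. Every KO heart was above every WT heart, by more than the spread within either group. The difference was 0.20 ± 0.08 (SE, n = 3 each), a 1.15-fold higher mean in KO hearts with a 95% interval of 0.02 to 0.38, and it did not pass over all clusters (limma adjusted p = 0.797). With each heart left out in turn it was between 0.18 and 0.22. All 4 clusters read as Rpl38 had every KO heart above, with differences of 0.15 to 0.20. Only the brightest had an unadjusted p under 0.05. The others had unadjusted limma p of 0.077, 0.077 and 0.088, with 95% intervals that included 0. Clusters of near-identical copies may share RNA and are no independent measurement. In mice, loss of a copy of Rpl38 alters the axial skeleton in the Tail short mutant.

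The promoter of Rpl38 is shown because this gene had the lowest p. The 250 bases before its start, chr11:114668330-114668579 on the plus strand (GRCm38.p6, RefSeq), hold CCGGAAG, the core bound by ETS-family factors, in capitals.
Rpl38: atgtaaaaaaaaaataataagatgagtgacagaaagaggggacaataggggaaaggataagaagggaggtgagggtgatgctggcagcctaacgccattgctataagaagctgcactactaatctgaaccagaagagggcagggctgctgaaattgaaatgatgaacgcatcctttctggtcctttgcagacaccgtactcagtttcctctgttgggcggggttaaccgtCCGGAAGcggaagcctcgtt
The TOP tract of this gene, shown above, begins at the first base of the annotated transcript.

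**Figure D3:**
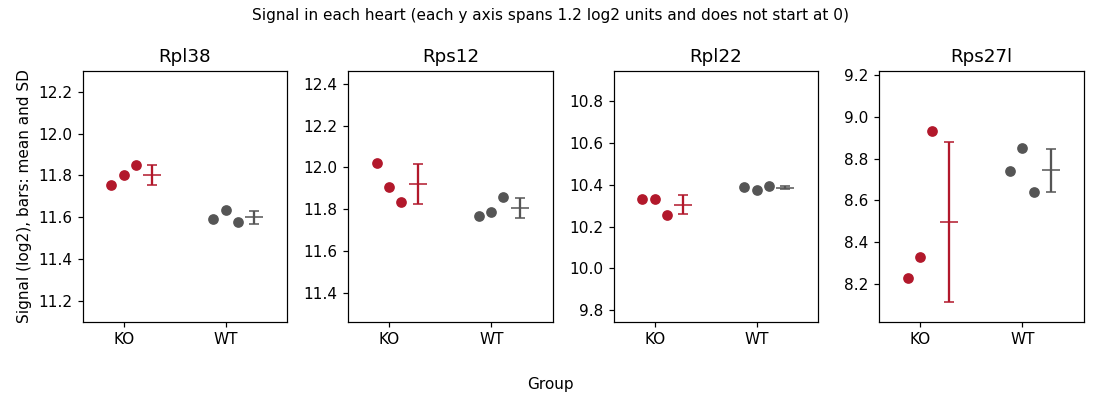
Signal in each heart (y axis, log2, a span of 1.2 in each panel) of Rpl38, Rps12, Rpl22 and Rps27l, KO hearts left of WT hearts, with the mean and SD beside the points, for genes picked with their values known. The KO and WT points separate for Rpl38 and Rpl22 and overlap for Rps12 and Rps27l.

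Among the 21 small-subunit genes, 12 had a higher and 8 a lower mean in KO hearts, with a median difference of 0.02, and 0 showed no overlap. Rps12, a protein of the small-subunit beak, stood at 12.02, 11.91 and 11.83 in KO hearts, against 11.77, 11.79 and 11.86 in WT hearts. The groups overlapped through KO heart 3 and WT heart 3, and the difference was 0.12 ± 0.09 (SE, limma adjusted p = 0.819). Rps28, which lies near the mRNA exit, had 11.12, 11.16 and 11.01 in KO hearts, against 11.03, 10.95 and 11.03 in WT hearts. KO heart 3 fell within the WT range, and the difference was 0.09 ± 0.08. Rps3, at the mRNA entry site, was higher by 0.06, as were Rps21, Rps18 and Rps4x, the last of which is encoded on the X chromosome, all with overlapping groups.

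At the lower end of the small subunit was Rps19, the gene first linked to Diamond-Blackfan anaemia. It had 9.74, 9.63 and 9.25 in KO hearts, against 9.64, 9.61 and 9.75 in WT hearts. The low value of KO heart 3 set the difference of -0.12 ± 0.13, which was 0.02 without that heart. Rps13 had a difference of -0.05 and Rps2 of -0.02. Other clusters went the other way, with 2 of 3 higher in KO hearts for Rps13 and 1 of 3 for Rps2. Rpsa, which is also known as a receptor for laminin, an integrin ligand, had 12.54, 12.54 and 12.43 in KO hearts, against 12.47, 12.46 and 12.47 in WT hearts, a difference of 0.03 ± 0.08. Of the 5 clusters of Rpsa 3 were higher, and their differences ran from -0.08 to 0.03. Rps6, the target of S6 kinases downstream of mTOR, had 12.95, 12.92 and 13.04 in KO hearts and 12.98, 13.01 and 12.93 in WT hearts. The interval of Rps6, -0.19 to 0.19, bounds its difference in either direction.

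Among the 30 large-subunit genes, 11 had a higher and 19 a lower mean in KO hearts, with a median difference of -0.01. Rpl22, an RNA-binding protein that T cell development depends on in mice, had 10.33, 10.33 and 10.25 in KO hearts, against 10.39, 10.38 and 10.39 in WT hearts. Every KO heart lay below every WT heart, and the difference of -0.08 ± 0.08 did not pass (limma adjusted p = 0.857). Rpl30 had 8.66, 9.17 and 9.24 in KO hearts, against 9.11, 9.23 and 9.16 in WT hearts. KO heart 1 was the low one, and the difference of -0.14 ± 0.15 became 0.04 without it. Rpl14 likewise had its lowest value in KO heart 1, with a difference of -0.11 ± 0.11 that became -0.03 without it.

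Rpl13, Rpl28, Rpl6 and Rpl10 had differences of -0.06, -0.04, -0.04 and -0.04. Rpl10 joins the large subunit late in its assembly, where it is needed for subunit joining. On the higher side were Rpl27a at 0.08 ± 0.08 and Rpl12, a protein of the stalk base, at 0.11 ± 0.14. Rpl12 had 7.59, 8.11 and 8.07 in KO hearts, against 7.82, 7.88 and 7.75 in WT hearts, so KO heart 1 lay below and the other two above, and the difference was 0.27 without KO heart 1. Rpl5, which carries 5S ribosomal RNA and binds Mdm2, had 12.31, 12.29 and 12.32 in KO hearts and 12.26, 12.36 and 12.31 in WT hearts, with an interval of -0.18 to 0.18. Rpl7, Rpl7a, Rpl10a and Rpl21 had differences of -0.01, 0.01, 0.03 and 0.00.

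The stalk of the large subunit recruits elongation factors and is built of Rplp0 and the acidic proteins Rplp1 and Rplp2. By their brightest clusters all 3 genes had slightly lower means in KO hearts, with overlapping groups. The differences were -0.04 ± 0.08 for Rplp0, -0.04 ± 0.09 for Rplp1 and -0.07 ± 0.08 for Rplp2. A second cluster of Rplp0, with a mean signal of 13.06, was higher in KO hearts by 0.03, so the direction of Rplp0 depended on the cluster. Without KO heart 3, Rplp0 and Rplp1 stood at 0.01 and 0.01. The smallest adjusted p of the 3 was 0.873.

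Paralogues had the largest differences in either direction. Rps27l, a p53 target whose protein binds Mdm2, had 8.23, 8.33 and 8.93 in KO hearts, against 8.74, 8.85 and 8.64 in WT hearts. KO hearts 1 and 2 were below all WT hearts and KO heart 3 above them. The difference was -0.25 ± 0.18 (limma adjusted p = 0.819), and it was -0.47 without KO heart 3 and within -0.47 to -0.11 with any heart left out. Rpl7l1, a nucleolar protein related to Rpl7, had 9.26, 9.64 and 9.56 in KO hearts, against 9.79, 9.60 and 9.54 in WT hearts, a difference of -0.16 ± 0.12. KO heart 1 was lowest, and the difference was -0.04 without it.

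Rpl10l and Rpl39l, which are known as paralogues used in male germ cells, had dim clusters. Rpl10l had 5.39, 5.40 and 5.21 in KO hearts, against 5.29, 4.82 and 5.22 in WT hearts, and WT heart 2 alone was low. Rpl39l had 4.02, 4.24 and 4.07 in KO hearts, against 3.83, 3.89 and 4.06 in WT hearts. Their differences, 0.22 ± 0.14 and 0.18 ± 0.10, did not pass (limma adjusted p = 0.797 for both), and that of Rpl10l was 0.08 without WT heart 2. Rpl32l had 7.48, 7.36 and 7.35 in KO hearts, against 7.21, 7.33 and 7.21 in WT hearts, with no overlap and a difference of 0.15 ± 0.09. Rps4l had a difference of -0.06 ± 0.16.

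Rpl3l, the striated-muscle paralogue of Rpl3, had 5.27, 5.42 and 5.29 in KO hearts, against 5.37, 5.30 and 5.31 in WT hearts. The groups overlapped fully, with a difference of -0.00 ± 0.08 and an interval of -0.20 to 0.19. Whether signals this dim lie above background could not be read from the deposited values. The 26 genes not taken by the rule for named genes had differences from -0.04 to 0.05.

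Several clusters carry the symbol of the same ribosomal protein gene for 39 of the 61 genes, up to 14 for Rps12. Ribosomal protein genes have many near-identical processed pseudogenes in mouse, and where a cluster lies is not used here, so clusters of 1 symbol cannot be taken as separate measurements. Of the 217 clusters, 205 held distinct values. Over the clusters, 128 were higher and 88 lower in KO hearts, 1 of Rps6 had equal means, 19 had every KO heart above and 7 every KO heart below, and limma called 0. The shares that this count has for all clusters are 6.01% and 6.61%.

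The clusters of a gene went in 1 direction for 25 of the 39 genes and in both for 14. All 14 clusters of Rps12 were higher in KO hearts, by 0.06 to 0.21, and 2 showed no overlap, though they held 8 distinct sets of values. Likewise all 7 clusters of Rps28, all 7 of Rps18 and all 9 of Rpl27a were higher, while all 9 of Rpl13 were lower, 3 of them with every KO heart below. For Rpl9, 6 of 8 clusters had every KO heart above, with differences of up to 0.14, but the brightest one overlapped, with a difference of 0.01. Taking the mean of a gene's clusters in place of the brightest gave 5 genes without overlap, 3 of which were among the 4 found with the brightest.

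**Figure D4:**
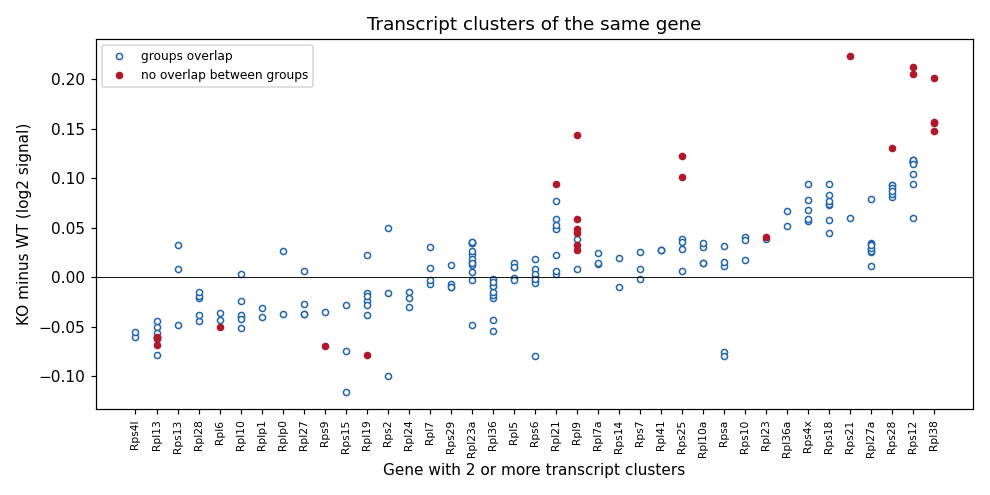
Difference between KO and WT hearts (y axis, log2 signal, KO minus WT) for every cluster of the 39 genes with several clusters, ordered by the difference of the brightest cluster; filled points mark clusters without overlap between the groups. The clusters of Rpl38 are all filled and above 0, and those of Rpl13 all lie below 0.

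Sequence features around the start were counted beside all genes. The TOP tract was found for 18 of the 49 genes with a RefSeq start (36.7%), beside 21.2% of 27025 genes. CCGGAAG, on either strand of the 300 bases from 250 before to 50 after the start, was found for 19 genes (38.8%), beside 9.93%. AAGATGGC, the core bound by YY1, was found for 3 genes (6.12%), beside 3.19%. Genes scored with the tract had a median difference of 0.01, with 9 higher and 8 lower in KO hearts. Those scored without, which may include genes with a tract, had -0.00, with 15 higher and 16 lower. Genes with CCGGAAG had a median of 0.03, with 12 higher and 6 lower, and those without had -0.01, with 12 higher and 18 lower. These are descriptions with no test, and the directions depend on scaling as given above.

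Genes grouped by a known role had no common direction. Of 9 genes mutated in Diamond-Blackfan anaemia, 3 had a higher and 6 a lower mean, with a median of -0.01 and differences from -0.12 for Rps19 to 0.09 for Rps28. Of 7 whose proteins bind Mdm2, 4 were higher and 3 lower, with a median of 0.02. These groups were written after the values were seen. Of 14 measured p53 targets, 6 had a higher and 8 a lower mean in KO hearts, with a median of -0.03, and 0 showed no overlap.

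Other genes of protein synthesis are given side by side with no test of the difference between lists. Of the 16 measured mRNAs outside the ribosome that carry a TOP tract, 9 had a higher and 7 a lower mean in KO hearts, with a median of 0.00. For 3 of the 16 (18.8%) every KO heart lay above and for 1 (6.25%) below, beside 6.01% and 6.61% of all clusters. Among the 16, Npm1, a nucleolar chaperone, stood at 0.18 ± 0.10 with every KO heart above. Of 32 initiation factors, 10 were higher and 22 lower, with a median of -0.03, and Eif3l had -0.16 ± 0.08. Of 14 elongation and termination factors, 4 were higher and 10 lower, with a median of -0.03, and Tsfm, which acts in mitochondria, had -0.31 ± 0.10. Of 15 genes of mTOR signalling and translation control, 5 were higher and 10 lower, with a median of -0.05. Every KO heart lay below for 1 of the 14 elongation and termination factors (7.14%) and for 1 of these 15 genes (6.67%), and above for 0. Fau, which encodes the small-subunit protein eS30 fused to a ubiquitin-like protein, had 0.00 ± 0.09. The 3 measured snoRNA host genes, Snhg11, Gas5 and Snhg5, were higher, by 0.19, 0.19 and 0.04, with overlapping groups. None of these genes passed (limma, smallest adjusted p = 0.797).

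Most genes that build ribosomes had lower means in KO hearts. Of 49 ribosome assembly genes, 9 had a higher and 40 a lower mean in KO hearts, with a median of -0.11, and of 20 genes of RNA polymerase I, 3 were higher and 17 lower, with a median of -0.10. Rrp12, which exports pre-ribosomes, had -0.32 ± 0.12, and Taf1d, a subunit of the polymerase I selectivity factor, had -0.21 ± 0.08, with every KO heart below in both. Every KO heart lay below for 5 of the 49 assembly genes (10.2%) and for 1 of the 20 polymerase I genes (5%), beside 6.61% of all clusters. Without KO heart 1 the medians were -0.01 for assembly and -0.03 for polymerase I. Mitochondrial ribosomal proteins had 3 higher and 74 lower of 77, with a median of -0.15, and -0.08 without KO heart 1. Every KO heart lay below for 19 of the 77 (24.7%) and above for 0, beside 6.61% and 6.01% of all clusters. Over the cytosolic ribosomal proteins KO heart 1 had a mean of 10.93, next to 10.93 in WT heart 2. Limma called 0 of the genes in these lists.

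**Figure D5:**
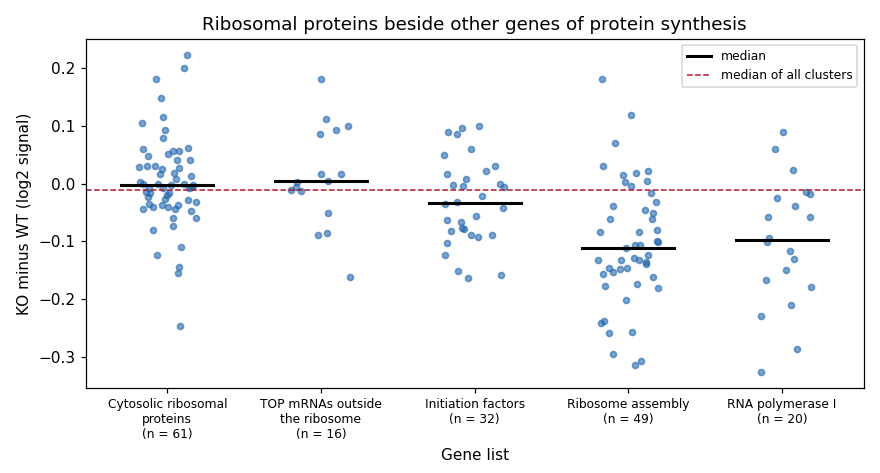
Difference between KO and WT hearts (y axis, log2 signal, KO minus WT) for the 61 cytosolic ribosomal protein genes and for 4 lists of other genes of protein synthesis, each point a gene, with list medians as black lines and the median of all clusters dashed. The medians of the cytosolic ribosomal proteins and of the TOP mRNAs lie at -0.00 and 0.00, and those of ribosome assembly and RNA polymerase I at -0.11 and -0.10.

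Cell type markers, which bear on what tissue the signals come from, differed as follows. Cardiomyocyte markers averaged 12.65, 12.74 and 12.73 in KO hearts and 12.76, 12.73 and 12.72 in WT hearts (11 genes, 4 higher and 7 lower). Endothelial markers averaged 9.77 to 9.82 in KO hearts and 9.84 to 9.91 in WT hearts (7 genes, 2 higher and 5 lower). Mesenchyme and epicardium markers averaged 9.80 to 10.45 in KO hearts and 9.58 to 10.10 in WT hearts (9 genes, 8 higher). Macrophage markers averaged 6.91 to 7.14 in KO hearts and 6.73 to 6.87 in WT hearts (10 genes, 9 higher). For 4 of the 10 (40.0%) every KO heart lay above, beside 6.01% of all clusters, and the 1 lower gene had a difference of -0.40. Fetal liver markers averaged 5.52 to 5.87 in KO hearts and 5.22 to 5.38 in WT hearts (8 genes, 5 higher and 3 lower). Every KO heart lay above for 3 of the 8 (37.5%), Alb, Afp and Ahsg, beside 6.01% of all clusters. The fetal liver markers were dim, with mean levels of 4.15 to 6.17, so whether they lie above background could not be read. The part of these cell types in the ribosomal protein values was not tested.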

How the data were processed

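RNA from 3 KO and 3 WT hearts was measured on Affymetrix arrays. The deposited values are log2 signals that the authors made with RMA, which corrects background, normalizes across arrays and summarises probes per transcript cluster, per the submitters' processing notes. Its version, the probe annotation and filters are not stated there. Scanner files were left aside, so signal over background is unknown, and the number of arrays limits the precision.

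Members came from the 21776 clusters that the platform annotation pairs with 1 symbol. The 1618 with several symbols and the 5373 with none entered the fit without a name. KO was compared with WT by limma 3.58.1 in R 4.3.3 (lmFit and eBayes, two-sided, no covariate or filter), with Benjamini-Hochberg adjustment over all 28767 clusters and a threshold of 0.05. The fit was tested on simulated data. Lists were described by counts and medians, with no test.

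The members and lists were chosen with earlier results of these data known. Named members were the 12 with the lowest p in each direction, paralogues and the genes of the same number, stalk proteins, Rpsa, Rpl5, the 5 brightest and the 5 dimmest, and Rps4x, and up to 4 members of a list by lowest p. Genes named outside this rule, such as Rps6, Rpl34, Rpl9, Rpl23 and Rps3a1, were picked with their values known, as were the role groups. Promoter sequences are from RefSeq, GRCm38.p6. Protein sequences were not analysed here. The alternatives changed the scaling (quantile, cyclic loess, centring on array medians or on bright clusters), the clusters fitted or averaged, the variance model, the weights of the arrays, the replicate block, and the hearts included.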

Additional observations from a re-analysis of the deposited data

How the results depend on the processing

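The arrays bound differences of bright members closely and those of dim members poorly. Centring on bright clusters gave a median difference of 0.0093 and 2 genes without overlap. Without 1 heart the median lay between -0.0085 and 0.012, the genes without overlap between 4 and 20, the higher genes between 28 and 34, the lower genes between 26 and 32, and the clusters called over the array between 0 and 1, the 1 coming without KO heart 1. The genes without overlap were 8, 10 and 20 without KO heart 1, 2 and 3. These were 13.1%, 16.4% and 32.8% of the members, beside 20.5%, 23.4% and 28.1% of all clusters. Without WT heart 1, 2 and 3 they were 4, 11 and 9. Those were 6.56%, 18.0% and 14.8%, beside 20.3%, 19.99% and 24.7%. A comparison of fewer hearts overlaps less often by construction. Members whose direction turned had small differences. Quantile normalization again gave 0.0081 for Rpl7 and -0.018 for Rpl21, cyclic loess 0.0011 for Rpl5, 0.0033 for Rpl7 and -0.0039 for Rpl21, array medians -0.0030 for Rpl21, bright clusters 0.010 for Rpl3l, 0.011 for Rpl5 and 0.0047 for Rpl7, and array weights 0.059 for Rpl3l, 0.059 for Rps4l and -0.010 for Rpl21. Without 1 heart the ranges were -0.048 to 0.027 for Rpl3l, -0.011 to 0.038 for Rpl7a, -0.20 to 0.019 for Rps4l, -0.034 to 0.044 for Rpl21, -0.025 to 0.023 for Rpl5, -0.057 to 0.036 for Rpl7, -0.25 to 0.037 for Rpl30, -0.23 to 0.019 for Rps19, -0.062 to 0.012 for Rplp0 and -0.086 to 0.0078 for Rplp1. The causes of these turns were not tested. Same-numbered KO and WT hearts did not deviate together (r = -0.042, -0.026 and -0.056 across clusters). With 3 hearts per group this cannot show whether hearts of the same number were paired, which the labels do not state. With 1 KO and 1 WT heart of each number, the replicate block cannot change a difference or an overlap. The counts of 34 lower and 26 higher genes and 4 without overlap therefore stayed the same by construction. Only the p-values could change, and 0 clusters were called. Of the 45 members with a mean signal of at least 10, a bound chosen after seeing the data, 21 were higher and 23 lower.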

Other observations

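A pair of clusters of ribosomal protein genes split the hearts across the groups. Rps3a1 had 11.41, 11.36 and 11.93 in KO hearts, against 11.86, 11.42 and 11.37 in WT hearts, so KO heart 3 and WT heart 1 were high and the other 4 hearts lay between 11.36 and 11.42. The dimmest of 3 clusters of Rps2 had 12.20, 11.42 and 11.16 in KO hearts, against 11.80, 11.86 and 11.42 in WT hearts, while the brightest had 13.21, 13.12 and 13.12 in KO hearts and 13.18, 13.20 and 13.13 in WT hearts. The second cluster of Rps21 had a difference of 0.22 with every KO heart above, against 0.06 for the brightest. These were chosen after their values were seen.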
